A study of Rattus norvegicus with 2 samples.

Results

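Chromosome 1, the longest chromosome of the rat, was described through the probes that the array places on it. Probes were taken where both arrays gave a spot that was no control and carried no outlier flag in either channel and where the position given was on chromosome 1 of the rn4 assembly, and spots of the same probe were averaged. This gave 22819 of the 235872 probes kept, or 9.87% of the 231247 probes placed on chromosomes 1 to 20 and X. The first probe began at base 150004 and the last ended at base 267909731, and 229 probes of randomly placed chromosome 1 sequence were not counted. Most of the probes (88.0%) were 60 bases long, and the median distance from one probe to the next was 7332 bases.

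8-oxoguanine (8-oxoG) was measured in DNA from the kidneys of 2 male Wistar rats (spelled Wister in the labels), both 5 weeks old, untreated and kept free of specific pathogens. DNA fragments immunoprecipitated (IP) with an antibody to 8-oxoG were labelled with Cy5 and input DNA without IP with Cy3, at 800 ng each, and both were hybridised to one array per rat. Both arrays belong to a single group of normal kidney, with no control group, and the dyes were not swapped, so that an effect of the dye and an effect of the IP cannot be told apart. Whole kidney holds many cell types, and their shares were not measured.

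8-oxoG forms when reactive oxygen species oxidise guanine. It can pair with adenine when DNA is copied, which leads to G-to-T changes, and it is removed by base excision repair, which the DNA glycosylase OGG1 begins. An antibody to the modified base pulls down the DNA fragments that carry it, and the ratio of IP to input then reports where along a chromosome such fragments are more or less frequent relative to the rest of the genome, not how many lesions a cell holds.

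The 8-oxoG level of a probe is the log2(IP/input) of its processed intensities, centred on the median of all kept probes of its array, so that a level of 0 is the typical probe of the genome. On chromosome 1 the median intensity of the input was 95.8 on replicate 1 and 76.0 on replicate 2, and that of the IP was 95.8 and 75.1. Both channels of both arrays were well above background at 79.4% of the probes, against 78.0% on the other chromosomes. The spots name no gene and no annotation of rn4 was used here, so that regions are given by position only.

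As a whole, chromosome 1 had a mean level slightly below 0, the median of all kept probes. This mean was -0.04 in replicate 1 and -0.11 in replicate 2, or -0.07 ± 0.05 (SD, n = 2). The median over the probes of chromosome 1 lay nearer to 0, at -0.023 and -0.017. Most other chromosomes also had a mean below 0, so a mean below 0 does not set chromosome 1 apart. Its difference to the probes of the other chromosomes was -0.03 in replicate 1 and -0.01 in replicate 2, a mean difference of -0.02 with a standard error of 0.03 and a 95% confidence interval from -0.08 to 0.04. This did not pass the test across all chromosomes (limma, adjusted p = 0.769), in which 23.8% of the 21 chromosomes were called in either direction. The order of the means placed chromosome 1 at 15 of 21 from the top.

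Set against each of the 20 other chromosomes by a fit of those 20 differences, chromosome 1 differed from 5 (25%). It was below chromosome 2, with differences of -0.13 and -0.08 in replicates 1 and 2 (adjusted p = 0.00589), below chromosome 11 (-0.12 and -0.09, adjusted p = 0.00589) and below chromosome 13 (-0.09 and -0.06, adjusted p = 0.0350). It was higher than chromosome 10 by 0.15 and 0.09 and than chromosome 12 by 0.19 and 0.07 (adjusted p = 0.00173 for both). In each of these pairs both rats moved the same way. The calls rest on the mean of the same 2 values, so this gives no separate support. The comparisons share the values of chromosome 1 and are not independent. For the other 15 pairs the difference did not pass the test, the nearest to it being chromosome 19, below chromosome 1 by 0.06 (95% confidence interval 0.01 to 0.12, adjusted p = 0.0951).

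**Figure D1:**
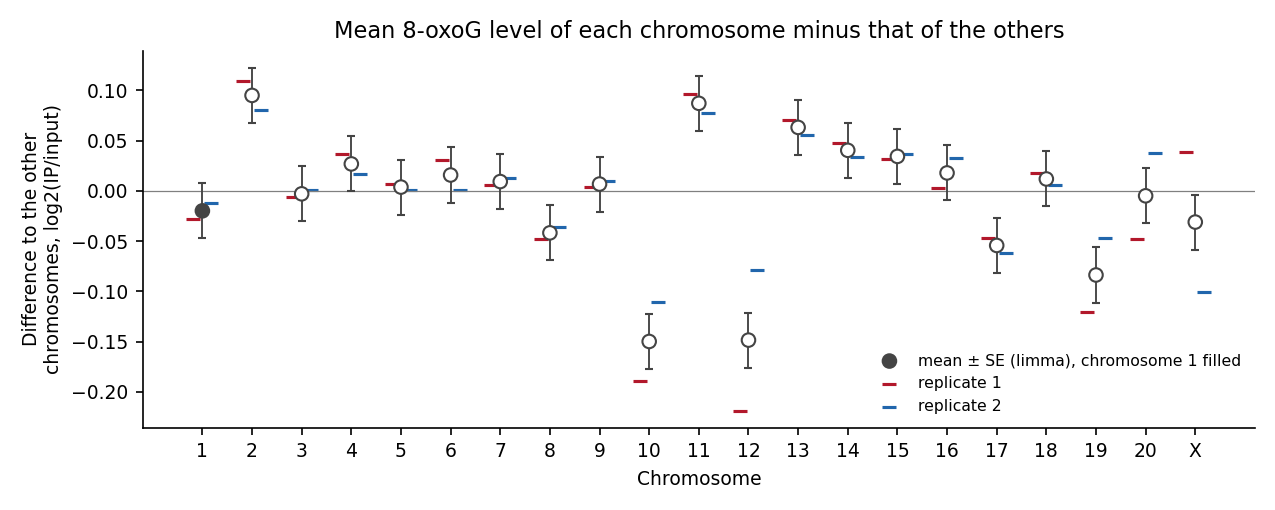
Mean 8-oxoG level of each chromosome minus the mean of the probes on the other chromosomes, in log2(IP/input); dashes are the 2 rats, circles their mean and bars the standard error from limma. Chromosome 1 (filled) lies at -0.02, near 0, while chromosomes 10 and 12 lie lowest and chromosomes 2 and 11 highest.

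Within the chromosome the level was uneven, and long stretches stood above or below 0 in both rats. After smoothing over 500 kb in each direction, the mean profile of both rats reached 0.76 at base 10461017, with 0.81 in replicate 1 and 0.71 in replicate 2. The 1 Mb fragment that holds this base, from 10 to 11 Mb, had only 32 probes. Its input was dim, with mean log2 intensities of 4.79 and 4.34 against 6.26 and 5.90 for the chromosome. The mean profile was lowest at base 197689391, at -0.73, with -0.59 and -0.87. Both rats were thus high at the first place and low at the second, although replicate 2 had its own summit elsewhere, at 0.84 at base 31494789. The fragment from 31 to 32 Mb, which holds that summit, had only 9 probes. The rich side of the profile covered 38.4% of the length and held 31.0% of the probes.

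**Figure D2:**
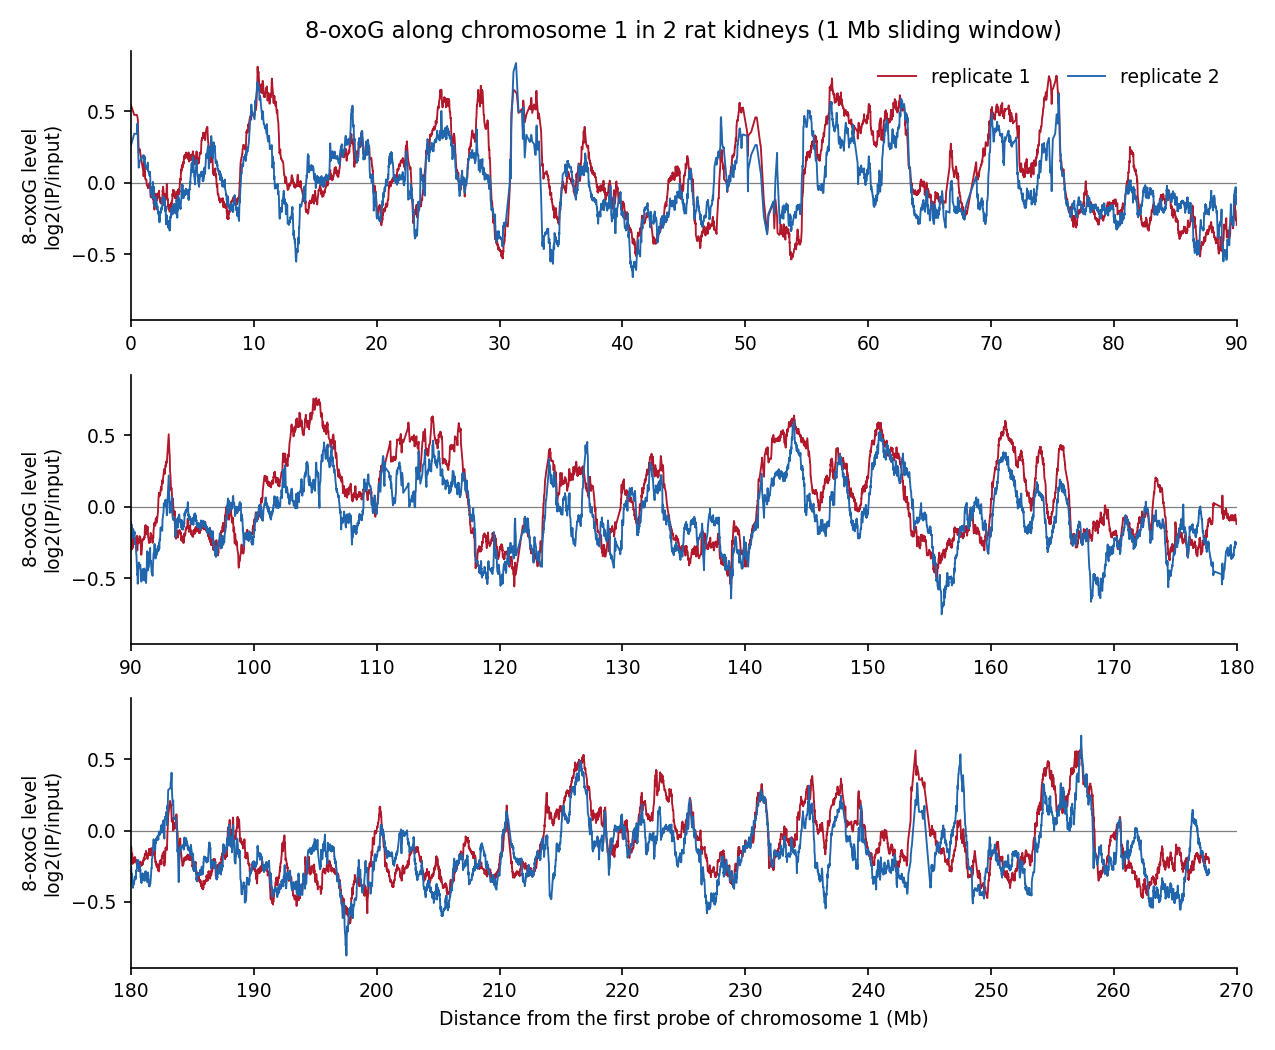
8-oxoG level along chromosome 1 in both rats, as the mean log2(IP/input) of the probes within 500 kb on each side, against the distance from the first probe in Mb (continued over 3 panels). Both lines rise and fall together along most of the chromosome, with a mean of 0.76 at the highest point and of -0.73 at the lowest.

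The first and the second part of the chromosome differed in level. From 0 to 134 Mb the mean level was 0.01 in replicate 1 and -0.06 in replicate 2, and from 134 to 268 Mb it was -0.08 and -0.14. The second part was thus lower in both rats. Of its 134 fragments of 1 Mb, 15 were called above 0 and 42 below, against 33 and 22 of 134 in the first part. Over all fragments of the genome, 20.9% were called above 0 and 20.4% below. The division at 134 Mb was described and not tested.

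In blocks of 10 Mb, low stretches were more frequent than high ones. Of the 27 blocks of chromosome 1, 2 were called above 0 (7.41%) and 10 below (37.0%) by limma, with a standard error of 0.06 for each. Over the 281 blocks of the genome, 17.4% were above 0 and 34.2% were below. Chromosome 1 thus had a share of low blocks near that of all blocks. With so few blocks, and fewer chromosomes, the pooled spread behind these calls is itself uncertain. The split depended on the zero point, since without centring 5 blocks were above 0 and 9 below, and before dye normalization 7 and 10.

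The 2 high blocks lay apart from each other. From 50 to 60 Mb the level was 0.20 in replicate 1 and 0.13 in replicate 2 (adjusted p = 0.0174). From 140 to 150 Mb it was 0.23 and 0.06 (adjusted p = 0.0359). Both rats were above 0 in each, but in the second the rats differed more. After removal of the trend of the level on the brightness of the input, neither passed the test (0.13, adjusted p = 0.0836, and 0.11, adjusted p = 0.151). Another background correction, normexp, started from the median signals of each spot and its background, without dye normalization. It adds an offset of 50 to both channels, which makes the ratios of dim spots smaller in size. Which of these differences moved the levels was not tested. With normexp the first block was 0.01 and the second turned to -0.04.

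The low blocks formed 1 long stretch and several single or paired ones. Between 170 and 210 Mb all 4 blocks were below 0. Their mean levels in replicate 1 and replicate 2 were -0.14 and -0.22 from 170 to 180 Mb, -0.21 and -0.22 from 180 to 190 Mb, -0.33 and -0.31 from 190 to 200 Mb, and -0.23 and -0.26 from 200 to 210 Mb. Over the 3979 probes of these 40 Mb the level was -0.22 in replicate 1 and -0.25 in replicate 2. The rats differed there by less than the distance of either from 0. Of the 40 fragments of 1 Mb 17 were called below 0, against 20.4% of all fragments of the genome. These fragments hold the same probes as the blocks by which the stretch was chosen, so their calls give no separate support.

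The block from 190 to 200 Mb was the lowest of the 281 of the genome in this processing (adjusted p = 1.22e-05). It stayed below 0 under each alternative processing, between -0.33 and -0.13, and lost its call only with normexp (adjusted p = 0.0666). The last block, from 260 Mb to the end, was next in size, at -0.23 in replicate 1 and -0.26 in replicate 2 (adjusted p = 0.000596). The others called low were those from 40 to 50 Mb, from 80 to 100 Mb (a pair), from 120 to 130 Mb and from 240 to 250 Mb, with mean levels between -0.20 and -0.15.

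**Figure D3:**
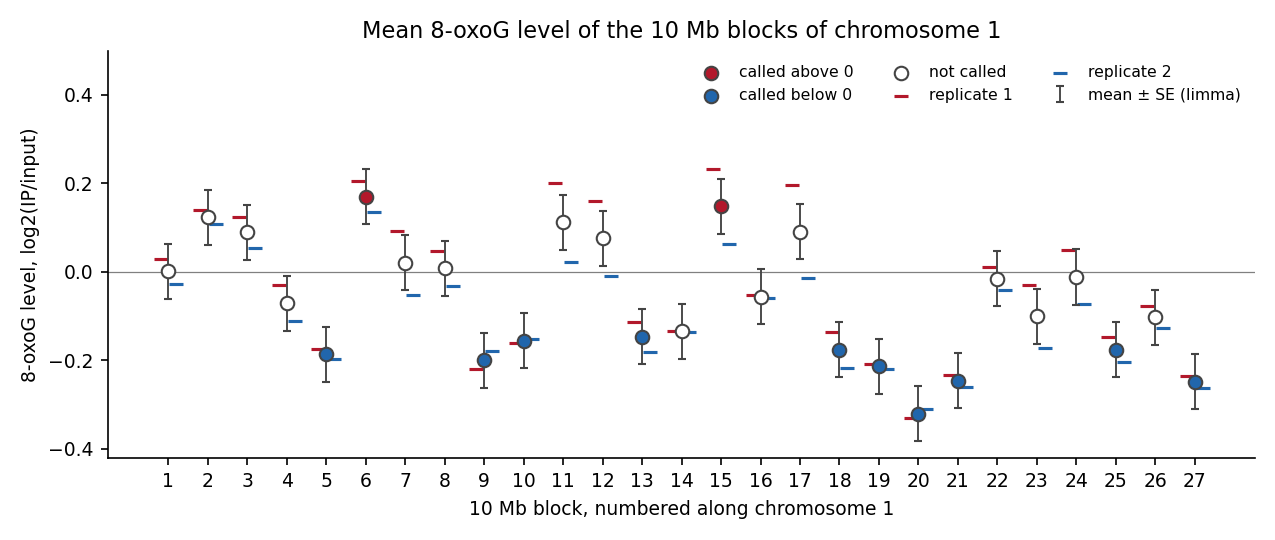
Mean 8-oxoG level of the 27 blocks of 10 Mb of chromosome 1, numbered from its start, in log2(IP/input); dashes are the 2 rats, circles their mean, bars the standard error from limma, and filled circles blocks whose mean passed the test against 0. The run of 4 blocks called low (18 to 21) is the longest, and the 2 blocks called high are 6 and 15.

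The 15 blocks that did not pass the test included 7 in which the rats took opposite signs. In all 7 replicate 1 was above and replicate 2 below 0, as from 160 to 170 Mb, with 0.20 and -0.01. Replicate 1 also had the higher mean level on most other chromosomes. Among the blocks of one sign in both rats, some were above 0 without a call. They lay from 10 to 20 Mb (0.14 and 0.11), from 20 to 30 Mb (0.13 and 0.05) and from 100 to 110 Mb (0.20 and 0.02). From 130 to 140 Mb the rats were close to each other (-0.13 and -0.14), but the adjusted p was 0.0583.

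At 1 Mb, chromosome 1 held 268 fragments with a median of 82 probes. The mean level of the middle fragment was -0.08, the quartiles were -0.23 and 0.14, and the SD was 0.26. In limma 48 fragments (17.9%) were above 0 and 64 (23.9%) were below, with a standard error of 0.10. Over all 2731 fragments of the genome the shares were 20.9% and 20.4%. All of the 64 low fragments and 47 of the 48 high ones had that sign in both rats. The share above ranked at 13 of the 21 chromosomes and the share below at 6.

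High fragments were frequent where probes were few. Under 20 probes there were 6 fragments, 5 of them called, and limma gave all fragments the same standard error whatever their number of probes. The 69 fragments with up to 53 probes had a mean level of 0.17 in replicate 1 and 0.04 in replicate 2, with 24 called above and 10 below 0. In the 66 with at least 111 probes it was -0.10 and -0.15, with 4 and 23. The fragments poorest in probes were thus the higher ones in both rats. Over all fragments of the genome, 20.9% were called above and 20.4% below 0. With fragments of at least 20 probes only, 45 were above and 66 below 0 on chromosome 1.

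Across the 268 fragments the level fell with the number of probes (Pearson r = -0.32) and with the brightness of the input, the r being -0.33 in replicate 1 and -0.34 in replicate 2. The level shares the input of its own array, but with the input of the other array r was also -0.36 and -0.31. The inputs of both arrays had an r of 0.996 with each other, and all these points share probes, so that base composition and probe behaviour are common to them. With the IP intensity of the other array r was -0.07 and 0.05, while rho was -0.23 and -0.12. Once the trend on input brightness was removed, 27 fragments were above 0 and 37 below, and 26 and 37 of these were among the 48 and 64 called before. With normexp 3 were above and 15 below 0.

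The highest fragments with at least 50 probes and one sign in both rats were found at 5 places. The highest of them ranked at 117 of the 2731 fragments of the genome. Fragments with fewer probes were higher, among them those from 10 to 11 Mb (0.76 and 0.65, 32 probes) and from 257 to 258 Mb (0.60 and 0.68, 43 probes). Another was that from 75 to 76 Mb (0.74 and 0.48, 32 probes). From 57 to 58 Mb the level was 0.58 in replicate 1 and 0.39 in replicate 2 over 82 probes (adjusted p = 7.15e-05). From 71 to 72 Mb it was 0.55 and 0.37 over 94 probes (adjusted p = 0.000223). From 144 to 145 Mb it was 0.51 and 0.37 over 119 probes (adjusted p = 0.000408). In each of these replicate 1 was the higher one. The fragment from 62 to 63 Mb had 0.52 and 0.35 over 67 probes, and that from 216 to 217 Mb had 0.46 and 0.39 over 157 probes.

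The height was shared by much of each fragment, to a differing extent. Between 57 and 58 Mb 50 of the 82 probes were above 0 in both rats and 10 were below in both, and 9 of its 10 intervals of 100 kb were above 0 in both. Between 216 and 217 Mb this held for 84 of 157 probes, with 29 below in both, and for 9 of 10 intervals. Fewer intervals were above 0 in both rats in the other 3, with 5 of 9 intervals and 56 of 94 probes between 71 and 72 Mb, 7 of 10 and 64 of 119 between 144 and 145 Mb, and 8 of 10 and 34 of 67 between 62 and 63 Mb. Single probes within a fragment followed each other only loosely, with r between 0.27 and 0.51 in the 5 high fragments. The dimmest input among these fragments was that from 57 to 58 Mb, with mean log2 intensities of 4.99 and 4.55 against 6.26 and 5.90 for the chromosome. All 5 kept their call after the trend on input brightness was removed, with levels from 0.31 to 0.42, and none did with normexp, where they lay between 0.01 and 0.07.

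The lowest fragments under the same rule lay mostly in the second part of the chromosome. From 197 to 198 Mb the level was -0.52 in replicate 1 and -0.53 in replicate 2 over 51 probes (adjusted p = 1.74e-05), and it was the fourth lowest of the 2731 fragments. From 205 to 206 Mb it was -0.39 and -0.60 over 127 probes (adjusted p = 5.82e-05). From 193 to 194 Mb it was -0.48 and -0.41 over 91 probes (adjusted p = 0.000301). These 3 fall within the low stretch from 170 to 210 Mb. The other 2 were from 156 to 157 Mb, at -0.30 and -0.56, and from 41 to 42 Mb, at -0.35 and -0.48.

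Between 205 and 206 Mb 64 of 127 probes were below 0 in both rats and 19 above in both, and 9 of 10 intervals of 100 kb were below in both. In the other 4 low fragments 7 or 8 of 10 intervals were. Among the 5 low fragments only that from 205 to 206 Mb had dimmer input than the chromosome on average. Its mean log2 intensities were 6.10 and 5.74, against 6.26 and 5.90. The others were brighter, from 6.48 to 6.99 in replicate 1 and from 6.13 to 6.77 in replicate 2. With normexp, the fragment from 197 to 198 Mb kept its call at -0.27 and the other 4 did not, at -0.15 to -0.12. With only probes well above background, the fragment from 41 to 42 Mb was at -0.24 and lost its call.

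The highest mean of any fragment was 0.74, from 31 to 32 Mb, with 0.63 in replicate 1 and 0.84 in replicate 2, but it rests on 9 probes. It opened a run of 3 fragments called above 0, up to 34 Mb, with 48 probes in all. Their input was brighter than the mean of the chromosome, with log2 intensities of 7.69, 8.22 and 7.16 in replicate 1. The fragment just before it, from 30 to 31 Mb, was below 0 in both rats, at -0.42 and -0.29 over 86 probes.

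Called fragments often lay side by side, which is described here without a count of runs on the other chromosomes. Of the fragments of chromosome 1, 17.9% were called above 0 and 23.9% below, against 20.9% and 20.4% over the genome. There were 6 runs of at least 3 neighbouring fragments called above 0, and the longest, of 5 each, were from 102 to 107 Mb and from 112 to 117 Mb. Below 0 there were 8 such runs, of which the 3 longest, of 4 each, were from 40 to 44 Mb, from 118 to 122 Mb and from 262 to 266 Mb. The low run from 118 Mb thus began 1 Mb after the high run that ended at 117 Mb.

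Both rats showed much the same pattern at this scale. Over the 268 fragments Pearson r was 0.808 and Spearman rho 0.787, which ranked at 10 of the 21 chromosomes by r. In 84 fragments both rats were above 0 and in 136 both were below. The remaining 48 (17.9%) had opposite signs, and in 38 of them replicate 1 was the higher one. Replicate 1 was above replicate 2 in 183 of 268 fragments, by 0.08 on average, with an SD of 0.17. This offset was not particular to chromosome 1. Its average was above 0 on every chromosome except chromosome 12 (-0.04), from 0.02 on chromosome 10 to 0.23 on X. Neighbouring fragments share domains and both arrays share the probes, so r is given as a description.

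**Figure D4:**
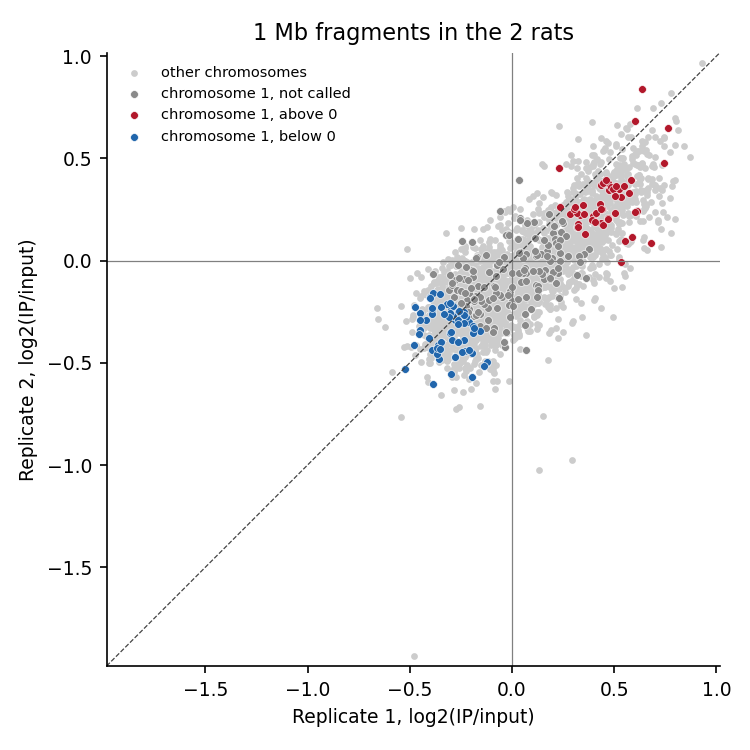
Mean 8-oxoG level of each 1 Mb fragment in replicate 1 against replicate 2, in log2(IP/input), with chromosome 1 drawn over the other chromosomes (light grey) and coloured by its call in limma; the dashed line marks equal levels. Fragments of chromosome 1 follow the line with r = 0.808, and those called above 0 mostly lie under it, higher in replicate 1.

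Likeness between rats grew with the length averaged. For single probes r was 0.326, and 62.9% of them had one sign in both rats. It was 0.415 for 50 kb, 0.733 for 500 kb, 0.859 for 2000 kb and 0.935 for 10 Mb, and each of these lay within the range of the other 20 chromosomes. A fragment of one rat also resembled the neighbours of its counterpart in the other, with a mean r of 0.46 at a distance of 1 Mb, 0.27 at 2 Mb and 0.06 at 5 Mb.

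Single probes varied far more than fragments. The SD over the probes of chromosome 1 was 0.95 in replicate 1 and 1.22 in replicate 2. Levels above 1 in both rats were found for 1222 probes (5.36%) and levels below -1 in both for 1098 (4.81%), against 5.90% and 4.65% on the other chromosomes. Short probes stood apart, since the 206 probes of 45 to 49 bases had a mean level of 0.25 in replicate 1 and 0.30 in replicate 2, while the 20092 of 60 bases had -0.04 and -0.12.

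In 3 fragments the rats differed most. From 105 to 106 Mb the level was 0.68 in replicate 1 and 0.09 in replicate 2 over 42 probes. From 103 to 104 Mb it was 0.54 and -0.01 over 39 probes. From 178 to 179 Mb it was 0.07 and -0.44 over 40 probes. Replicate 1 was the higher one in all 3, and all 3 held fewer probes than the median fragment. The first 2 were called above 0 by their mean (adjusted p = 0.00179 and 0.0328), while replicate 2 lay near 0 in both.

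Regions were also read from the smoothed profile as unbroken stretches of probes on one side of 0. Chromosome 1 had 30 rich regions that reached 1 Mb, the middle one 2.42 Mb long, and 35 depleted ones, the middle one 3.13 Mb long. More than 5 Mb was reached by 3 rich and 12 depleted regions, and more than 10 Mb by 0 rich and 2 depleted ones. The counts over 5 Mb depended on the rat, with 5 rich and 8 depleted in replicate 1 alone and 0 and 10 in replicate 2 alone. By the rich share of its length, 38.4%, chromosome 1 ranked at 14 of the 21 chromosomes. In 29 of the 30 rich and 33 of the 35 depleted regions both rats had the sign of the region. Depleted regions were denser in probes, with a median of 91.4 per Mb against 63.7 in rich ones. The sign of a region was used to define it, so these levels describe the regions and were not tested.

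The longest rich region was chr1:54806699-63629257, of 8.82 Mb and 550 probes. Its mean level was 0.42 in replicate 1 and 0.25 in replicate 2, and its summit lay at base 57174070. Next came chr1:110196491-117665697, of 7.47 Mb and 340 probes, with 0.39 and 0.20. The third was chr1:100878032-107391961, of 6.51 Mb and 397 probes, with 0.35 and 0.09. Replicate 1 was higher in each, and in the third 71.8% of the probes lay on the rich side of the smoothed profile of replicate 2, against all of them in replicate 1. With normexp the first and second fell to 0.03 and 0.02, and the third turned to -0.01.

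The longest depleted region was chr1:188856219-200375852, of 11.5 Mb and 856 probes. Its mean level was -0.29 in replicate 1 and -0.31 in replicate 2, and it was deepest at base 197689391. It was parted from chr1:200635433-210534074, of 9.90 Mb and 1374 probes with -0.25 and -0.26, by less than 1 Mb near 200 Mb. The second longest was chr1:81926878-92668768, of 10.7 Mb and 958 probes, with -0.25 and -0.21. In these 3 regions the rats were closer to each other than in the 3 rich ones. With normexp their means were -0.12, -0.09 and -0.09, in the order of the text.

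Steps from a fragment to the next were tested in the same way. Of 259 steps between neighbouring fragments of at least 20 probes, 25 (9.65%) went up and 26 (10.04%) went down past the test, with a standard error of 0.11. Over the 2666 steps of the genome the shares were 8.7% up and 8.89% down. The median size of a step was 0.15 on chromosome 1 and 0.14 on all chromosomes, and 188 of the 259 steps went the same way in both rats. Neighbouring steps share a fragment and are not independent.

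The largest step was down, at 76 Mb. The level passed from 0.74 to -0.20 in replicate 1 and from 0.48 to -0.19 in replicate 2, a mean step of -0.81 (adjusted p = 3.2e-10). The mean of the 32 probes before the border was above 0 in both rats and that of the 97 after it below 0 in both. At 250 kb the last interval before the border was at 0.94 and 0.68 and the first after it at -0.17 and -0.24. Both rats thus changed sign from the one interval to the other. Further before the border replicate 2 was uneven, with 1.29 in the next interval back, which held 7 probes, and between -0.13 and -0.01 in the 3 before that.

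The next steps down were at 258 Mb, where the level went from 0.60 to 0.06 in replicate 1 and from 0.68 to -0.26 in replicate 2, and at 34 Mb, where it went from 0.55 to -0.20 and from 0.10 to -0.57. The first of these ended the rich stretch near 257 Mb and the second the run from 31 Mb. With only probes well above background the step at 258 Mb was -0.27 and lost its call. The step at 34 Mb rests on 27 probes before and 73 after the border.

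The largest steps up were at 55, 124 and 254 Mb. At 55 Mb the level went from -0.40 to 0.23 in replicate 1 and from -0.18 to 0.45 in replicate 2, a mean of 0.63 (adjusted p = 1.43e-06). At 124 Mb it went from -0.24 to 0.32 and from -0.45 to 0.16. At 254 Mb it went from -0.12 to 0.43 and from -0.29 to 0.25. The step was close in size in both rats at each, with an SD between them of 0.0013 to 0.035. At 55 Mb the 250 kb means crossed 0 before the border of the fragments, and the longest rich region begins there, at base 54806699. With normexp no step passed the test in limma (20 up and 19 down at an unadjusted p under 0.05), the 6 named ones keeping their direction, with sizes from -0.33 to 0.14.

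**Figure D5:**
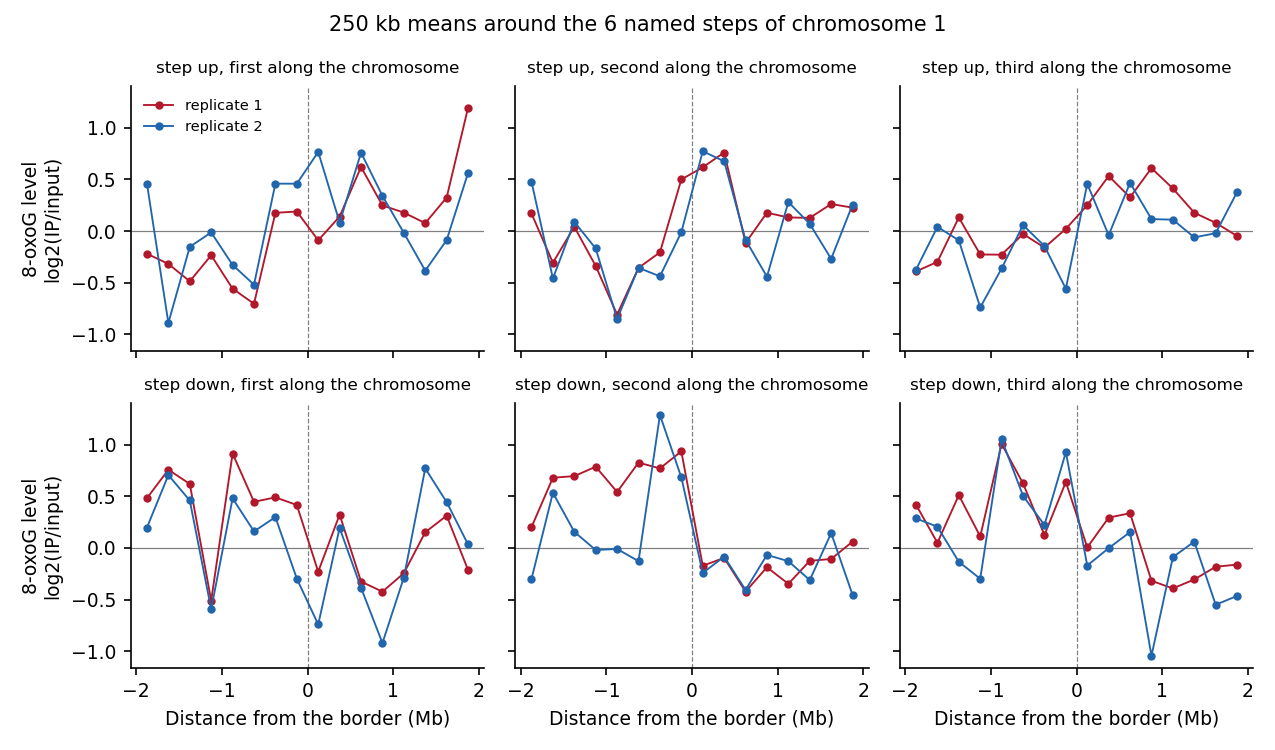
Mean 8-oxoG level in intervals of 250 kb around the 6 named steps, in log2(IP/input), against the distance from the border between the 1 Mb fragments in Mb, for both rats; the upper row holds the steps up at 55, 124 and 254 Mb and the lower row the steps down at 34, 76 and 258 Mb. The step down at 76 Mb passes from 0.94 and 0.68 to -0.17 and -0.24 across its border in replicates 1 and 2.

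The ends of the chromosome differed from each other by a small amount. The first 3 Mb, with 154 probes, had -0.05 in replicate 1 and -0.10 in replicate 2, and the last 3 Mb, with 365 probes, had -0.20 and -0.24. The end was lower in both rats. The longest stretch without a probe ran for 754178 bases, from 68177919 to 68932096.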

How the data were processed

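The authors read the arrays with Agilent Feature Extraction 10.5.1.1 and deposited processed intensities, background-subtracted and dye-normalized per the file headers, and a table of log2 values, which equals log2 of processed red (IP) over green (input) intensity, not centred. Levels were centred on each array's median, without further normalization. The fit of an intercept by limma 3.58.1 (R 4.3.3, two-sided, Benjamini-Hochberg adjusted p under 0.05) ran over all 1 Mb fragments, 10 Mb blocks with at least 50 probes, steps or chromosomes. From 2 arrays 1 residual degree of freedom remains, and the spread was pooled over all features, so each has the same standard error and p-values measure only the spread between 2 rats. The fits were tested on simulated data, in which the pooling of the spread, and with it the number of calls, varied between draws for blocks and chromosomes, and for fragments with small shifts. Python 3.11.15, numpy 2.4.6, pandas 2.3.3, scipy 1.17.1, statsmodels 0.14.6 and matplotlib 3.10.9 were used.

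Members and lists were chosen with earlier results of these data known. Named were every block, the 5 highest and 5 lowest fragments with at least 50 probes and one sign, the 3 longest regions of each kind, the 3 largest steps each way and the 3 fragments differing most between rats. The run from 31 Mb, the fragment before it, the division at 134 Mb and the ends were chosen after their values were seen. So was the stretch from 170 to 210 Mb, by its called blocks. Alternatives covered the ratio, centring, background and dye correction, spot and probe filters, brightness trend, window, grid and size. Genes and sequences were not analysed here.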

Additional observations from a re-analysis of the deposited data

How the results depend on the processing

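Only 2 arrays limit every test, and a replicate alone leaves no residual degree of freedom. Left with one replicate, the mean of chromosome 1 was -0.106 to -0.0394, with 31 to 32 rich and 37 to 46 depleted regions. Both arrays form a single group, so samples could not be paired. The results planned by gene were not run. In all alternatives the mean of the chromosome and its difference to the others stayed below 0, the latter without a call.

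Normexp background correction, which also left out dye normalization, changed most. It left 3 fragments above and 15 below 0, 15 rich regions and r = 0.645. In limma it gave 0 blocks above and 0 below 0 (0 and 10 at an unadjusted p under 0.05) and 0 steps up and 0 down (20 and 19 unadjusted). Under it the blocks from 0, 10, 20, 60, 70, 100, 110, 140 and 160 Mb turned to -0.0574, -0.0351, -0.0446, -0.0505, -0.0436, -0.0347, -0.0341, -0.0389 and -0.0371, and the rich region from 100878032 to -0.0115. Without centring, and in the authors' table, which gave the same values, 5 blocks were above 0, and those from 210 and 230 Mb turned to 0.0224 and 0.0259. Centred on the other chromosomes, the block from 0 Mb turned to -5.1e-05. Before dye normalization 7 blocks were above 0 and 8 steps each went up and down, and the block from 210 Mb was 0.0199. With only probes well above background the block from 230 Mb was 0.0104. Removal of the brightness trend left 27 fragments above and 37 below 0, 17 steps down and 0 blocks above (1 at an unadjusted p under 0.05), and turned the blocks from 0 and 70 Mb to -0.0034 and -0.0047. The median over probes left 27 fragments below 0, fragments of 500 kb gave 74 above, and a level beyond 0.25 on both arrays was reached by 24 above and 32 below. The causes were not tested. Of 392 values 308 kept their direction and their side of the threshold, or moved by less than the spread between rats. The values without centring and those of the authors' table, which are identical, were counted separately. Some other settings differ little from the main one. With normexp only 7 blocks and 1 named fragment stayed the same, and the 6 named steps lost their call.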
